A study of Homo sapiens with 12 samples.

Results

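The genes that make, modify, cleave, relay and switch off a Notch signal were examined for Notch3 binding in human cells from a neural crest differentiation. The set holds 35 of 20037 protein-coding genes (nuclear chromosomes only): ligands, enzymes that act on ligands and receptors, proteases, nuclear partners and regulators of turnover. The receptors and the HES, HEY and NRARP target genes were not members. A member was counted as having a peak when the summit of a deposited peak lay nearer to either end of that gene than to an end of any other protein-coding gene, within 100 kb.

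Notch signalling passes from a ligand on a neighbouring cell to a receptor that is cut in stages. The ligand is pulled by endocytosis after ubiquitination, a metalloprotease and then gamma-secretase cut the receptor, and the freed intracellular domain enters the nucleus. There it joins the DNA-binding protein RBPJ and a Mastermind-like (MAML) coactivator. Notch3 is the Notch receptor best known from mural cells, the pericytes and smooth muscle cells of vessels, whose maturation depends on the ligand JAG1 of adjoining cells.

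Cells of the established embryonic stem cell line H9 were differentiated to neural crest and given a lentivirus for N3ICD, the Notch3 intracellular domain, with GFP, or a lentivirus for GFP alone. Both groups were fixed 6 days later and precipitated with a Notch3 antibody, with libraries A, B and C per group (n = 3), and the series text states 3 independent differentiations of 1 line. The labels call the N3ICD cells mural and the GFP cells neural crest. Peak lists hold no expression, so these names were not checked against markers. N3ICD came from a vector, and the peak lists cannot tell the delivered domain from the cells' own Notch3. The libraries held 1219 to 1718 peaks with GFP and 2226 to 3397 with N3ICD. Depth was known only as the background pileup implied by the deposited values, 1.20 to 1.90 stacked fragments with GFP and 0.93 to 1.58 with N3ICD (two-sided exact permutation p = 0.5). A peak's fold is the authors' ratio of pileup to background at its summit, with 1 added to each, and its −log10 q is that of their peak caller. Coordinates are on hg38. A gene with no listed peak has no measured level there, and these lists cannot tell weak binding from none.

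Of the 35 members, 10 were found with a peak in some N3ICD library (28.6%, against 22.4% of all protein-coding genes) and 3 with one in some GFP library (8.57% against 8.02%). With MIB1 in both groups this made 12 members (34.3% against 27.3%), and the other 23 had none in any library. In the order A, B, C, kept below wherever libraries are not named, the N3ICD libraries had a peak at 5, 3 and 5 members and the GFP libraries at 1, 0 and 2. Over all deposited peaks the N3ICD and GFP counts did not overlap. The same was true of all genes, of which 6.09%, 9.11% and 11.4% had a peak per N3ICD library. Per GFP library 2.42%, 3.37% and 3.26% had one. With equal numbers of peaks per library the member counts overlapped, at 1, 3 and 3 with N3ICD and 1, 0 and 2 with GFP. At that setting the mean difference over all genes, N3ICD minus GFP, was 353 genes with a peak (two-sided exact permutation p = 0.1). Over all deposited peaks it was 1175. The number of genes with a peak then averaged 1780 ± 538 per N3ICD library and 605 ± 105 per GFP library (SD, n = 3, two-sided exact permutation p = 0.1, the smallest that 3 against 3 libraries allow). In N3ICD A the members' share was 14.3%, in B 8.57% and in C 14.3%. The share in B was slightly below that of all genes and the others were above it. The stretch of genome nearest to a gene's ends, where a summit is assigned to it, had a median of 53.4 kb for members and 57.1 kb for all genes. It differed widely between members. At the members with a GFP peak it was 341 kb (FBXW7), 266 kb (MIB1) and 181 kb (ADAM10). It was 196 kb at MAML3, 141 kb at JAG1 and 29.6 kb at DLL4. The median length of the gene was 30.8 kb for members and 24.1 kb for all genes. What part these lengths play was not tested.

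**Figure D1:**
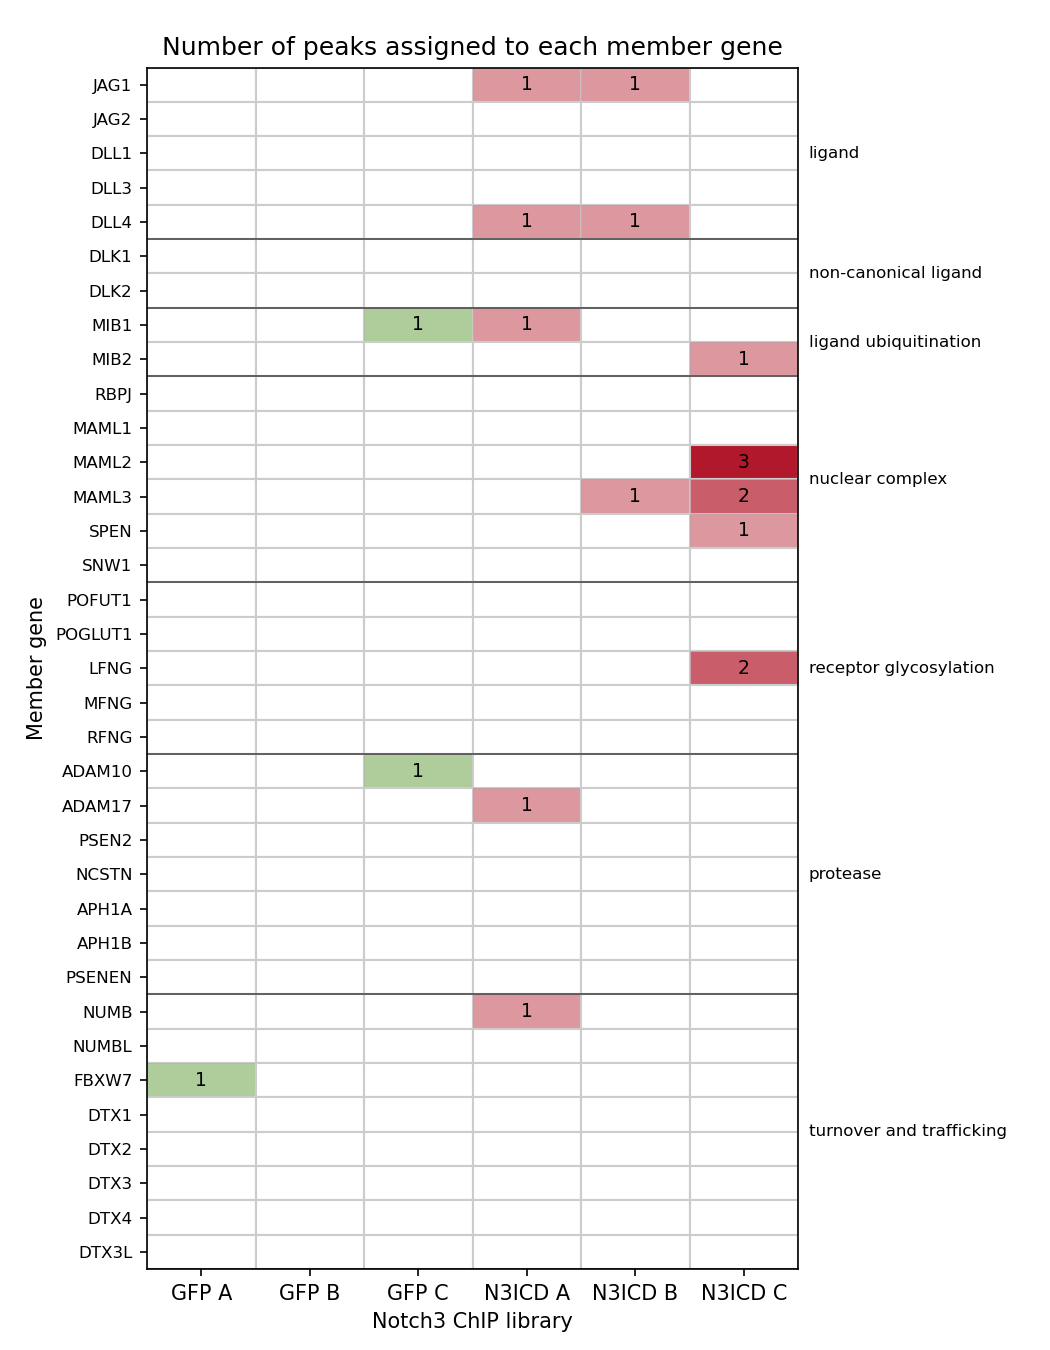
Number of peaks assigned to each of the 35 members (rows, grouped by role) in the 3 GFP and 3 N3ICD libraries (columns), with empty cells for no peak. JAG1, DLL4 and MAML3 are the members with peaks in 2 N3ICD libraries and none in a GFP library, and no member has a peak in all 3 N3ICD libraries.

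A gene was called recurrent when 2 or more N3ICD libraries and no GFP library had a peak at it. JAG1, DLL4 and MAML3 met this rule, 8.57% of members against 3.12% of all genes. The mirror rule for GFP took no member and 0.444% of all genes. Under a stricter rule, 0.354% of all genes and no member had more peaks in every N3ICD library than in every GFP library, and the reverse held for 0.0349% of all genes and no member. Without N3ICD A the recurrent member was MAML3, without N3ICD B there was none, and without N3ICD C they were JAG1 and DLL4. By the number of peaks per gene, JAG1, DLL4 and MAML3 each had an exact permutation p of 0.4 (two-sided, adjusted p = 1 over the 5475 genes with a peak in any library). None of the 5475 genes had a p under 0.05, since 0.1 is the smallest possible, and the 78 genes at 0.1 included no member.

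The ligands came first in the pathway. Of the 5 Jagged and Delta-like ligand genes, JAG1 and DLL4 had peaks and JAG2, DLL1 and DLL3 had none. DLL4, the ligand best known from endothelial cells (chromosome 15, 40929340 to 40939073), had 1 peak each in N3ICD A and B and none in N3ICD C or in GFP A, B or C. The peak in N3ICD B (40929439 to 40929676) had its summit 207 bp downstream of the annotated start, with a fold of 4.73 at a pileup of 12 and a −log10 q of 2.06, and it stood at the 94.6th percentile of fold in its library. The peak in N3ICD A (40931017 to 40931274) lay farther into the gene, 1826 bp from the start, with a fold of 4.15 at a pileup of 9 and a −log10 q of 0.877. The summits were 1619 bp apart, so the same gene was found again but not the same site. The 250 bases before the DLL4 start, which no listed peak covers, are shown here from RefSeq (GRCh38.p14, plus strand, chr15:40929090-40929339), 5′ to 3′, and hold none of the motifs searched.
DLL4: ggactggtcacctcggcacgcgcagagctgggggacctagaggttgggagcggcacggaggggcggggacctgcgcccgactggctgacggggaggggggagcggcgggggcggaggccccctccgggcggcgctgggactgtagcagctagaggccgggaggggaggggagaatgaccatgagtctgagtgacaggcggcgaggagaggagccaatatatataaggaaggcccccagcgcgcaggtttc

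JAG1, the ligand through which endothelial cells signal to mural cells (chromosome 20, 10637684 to 10673999), also had 1 peak each in N3ICD A and B and none in the other libraries. In N3ICD B the summit lay 2160 bp upstream of the start (10675938 to 10676214), with a fold of 4.01 at a pileup of 12 and a −log10 q of 1.298. In N3ICD A it lay 65438 bp upstream (10739274 to 10739641), with a fold of 3.09 at a pileup of 6 and a −log10 q of 0.104. The upstream peaks were 63278 bp apart. The next protein-coding gene, SLX4IP, was 111407 bp from the farther summit, so JAG1 was the only protein-coding gene with an end within 100 kb of it. The 250 bases before the JAG1 start carried no peak in any library and none of the motifs searched, and they are shown as a member's promoter without a peak (GRCh38.p14, minus strand, chr20:10674000-10674249).
JAG1: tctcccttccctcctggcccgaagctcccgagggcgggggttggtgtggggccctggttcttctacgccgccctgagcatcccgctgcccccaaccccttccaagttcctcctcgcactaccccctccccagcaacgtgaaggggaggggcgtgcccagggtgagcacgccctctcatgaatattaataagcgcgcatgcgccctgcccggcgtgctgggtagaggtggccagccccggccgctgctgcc

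DLK1 and DLK2, which encode ligand-like proteins without the domain that activates receptors, had no peak. Both ubiquitin ligases that prepare ligands for endocytosis did. MIB2 (chromosome 1, 1613731 to 1630605) had a peak in N3ICD C alone (1615354 to 1615820), whose summit lay 2 bp from an annotated start inside the gene, with a fold of 5.48 at a pileup of 10 and a −log10 q of 2.73. It was at the 95.9th percentile of fold in that library. MIB1 (chromosome 18, 21704916 to 21870953) had a peak in N3ICD A (21740825 to 21741242), 180 bp downstream of an annotated start, with a fold of 3.53 at a pileup of 7 and a −log10 q of 0.246. It was also the member with peaks in both groups: GFP C had a peak 25008 bp upstream of that start (21715628 to 21715920), with a fold of 3.80 at a pileup of 10 and a −log10 q of 0.697. The GFP peak at MIB1 thus had the higher −log10 q, in a library with a higher background pileup (1.90 against 1.27).

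The nuclear partners held the only site found again. MAML3, a Mastermind-like coactivator of the N3ICD and RBPJ complex (chromosome 4, 139716753 to 140154184), had 1 peak in N3ICD B, 2 in N3ICD C and none in N3ICD A or in GFP A, B or C. The N3ICD B peak (140154213 to 140154467) and the stronger N3ICD C peak (140154191 to 140154495) overlapped, with summits 96 and 152 bp upstream of the start. Their folds were 3.70 and 5.71 at pileups of 11 and 10, with a −log10 q of 0.945 and 2.98. The latter was the highest −log10 q of any member peak. A further peak in N3ICD C lay 1429 bp downstream of the start (140152680 to 140153223, fold 3.64, pileup 6). N3ICD A had a peak inside the gene (139747816 to 139748078, fold 3.49, −log10 q 0.246), but it lay 31166 bp from the end of MAML3 and 6699 bp from MGST2, to which it was assigned. The overlapping pair made MAML3 the only member with an N3ICD-only region, a site where peaks of 2 or more N3ICD libraries overlap and no GFP peak does. Of members this is 2.86%, and 0.958% of all genes had such a region. No member and 0.02% of all genes had a GFP-only region. The peaks of N3ICD B and C covered 222 and 244 of the 250 bases before the start, which are shown because this is the site found again (GRCh38.p14, minus strand, chr4:140154185-140154434). Capitals mark a match to the RUNX motif TGTGGT at 190 to 185 bases before the start.
MAML3: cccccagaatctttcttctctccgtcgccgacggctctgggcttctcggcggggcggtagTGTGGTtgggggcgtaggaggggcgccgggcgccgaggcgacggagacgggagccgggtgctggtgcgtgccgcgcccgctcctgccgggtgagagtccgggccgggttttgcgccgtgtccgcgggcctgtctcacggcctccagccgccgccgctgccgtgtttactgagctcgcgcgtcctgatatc

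The RBPJ core motif TGGGAA was not among the letters of this stretch. On either strand it was found in 20.1% of 22175 promoter stretches of the same length from protein-coding genes, and its longer form GTGGGAA, which contains it, in 5.28%. Of the members' 39 stretches, 5 held the core (12.8%) and 1 the longer form (2.56%). RUNX matches (TGTGGT) were in 9.34% of all stretches, TEAD matches (GGAATG) in 10.5% and AP-1 matches (TGANTCA) in 5.34%, against 7.69%, 5.13% and 2.56% of the members' stretches.

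The stretch with the longer RBPJ form belonged to RBPJ itself, the DNA-binding partner of the complex (chromosome 4, 26105449 to 26435131). RBPJ had no peak by the assignment rule, because its peak in N3ICD C (26319171 to 26319543) lay 115831 bp from the nearer end of this long gene. That distance is just outside the limit of 100 kb, and a MAML2 peak at 99637 bp was just inside it. The RBPJ summit lay 446 bp upstream of an annotated start within the gene (26319746), with a fold of 4.48 at a pileup of 10 and a −log10 q of 1.52. It was at the 80.6th percentile of fold in N3ICD C, and no other library had a peak inside RBPJ or within 50 kb of it. The stretch before that start is shown because it holds GTGGGAA on both strands (plus strand, chr4:26319496-26319745), with the matches in capitals.
RBPJ: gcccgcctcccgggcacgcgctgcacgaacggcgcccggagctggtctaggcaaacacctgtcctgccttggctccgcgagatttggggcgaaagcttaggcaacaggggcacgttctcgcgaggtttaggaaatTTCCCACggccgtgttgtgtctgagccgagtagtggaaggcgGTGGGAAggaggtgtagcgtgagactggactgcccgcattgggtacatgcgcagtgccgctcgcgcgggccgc

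Counted from the start, the matches began at 115 and at 73 bases before it, with 35 bases between them. At least 2 matches of this form were found in 39 of the 22175 stretches (0.176%), and RBPJ was the only member among these 39. The requirement of 2 matches follows what the RBPJ stretch itself holds, so this share is a description only. The deposited peak covered the first 48 bases of the stretch and ended 87 bases before the first match, so the matches lie outside the peak as called.

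MAML2, a second coactivator of the family (chromosome 11, 95976598 to 96343195), had 3 peaks in N3ICD C and none in the other libraries. All lay inside this long gene, 20999, 99637 and 290716 bp downstream of its start, with folds of 3.64, 4.67 and 4.15 and a −log10 q of 0.427, 1.39 and 0.828. SPEN, a corepressor that binds RBPJ (chromosome 1, 15847707 to 15940456), had 1 peak in N3ICD C, 1865 bp downstream of its start. With a fold of 3.05 at a pileup of 5 and a −log10 q of 0.147 it was the weakest member peak of that library. MAML1 and SNW1, a nuclear cofactor of the complex, had none assigned.

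Among the enzymes that place sugars on the receptor, LFNG alone had peaks. It encodes the Fringe glycosyltransferase that alters which ligands a receptor answers (chromosome 7, 2512529 to 2529177). Both peaks were in N3ICD C, inside the gene, at 984 and 3458 bp downstream of an annotated start within it, with folds of 3.64 and 3.14 and the same −log10 q of 0.427. POFUT1 and POGLUT1, which add O-linked fucose and glucose, and the other Fringe genes MFNG and RFNG had none.

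Of the 7 protease genes, ADAM17 had an N3ICD peak and ADAM10 a GFP peak. ADAM17, a metalloprotease of the cell surface (chromosome 2, 9488486 to 9555830), had 1 peak in N3ICD A and none elsewhere (9555517 to 9555956). Its summit lay 51 bp upstream of the start, with a fold of 3.53 at a pileup of 7 and a −log10 q of 0.246. Of the 250 bases before the start, the peak covered the 126 nearest to it. They are shown as a further promoter stretch that an assigned peak reaches (minus strand, chr2:9555831-9556080). Capitals mark the TEAD motif GGAATG read on the opposite strand, at 227 to 222 bases before the start. This match lies outside the peak as called.
ADAM17: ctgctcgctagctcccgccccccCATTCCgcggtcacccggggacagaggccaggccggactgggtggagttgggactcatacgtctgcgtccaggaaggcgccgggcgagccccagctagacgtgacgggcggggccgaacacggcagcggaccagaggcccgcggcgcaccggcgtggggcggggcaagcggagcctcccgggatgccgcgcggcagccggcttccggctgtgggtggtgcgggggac

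ADAM10, the metalloprotease that makes the first ligand-dependent cut, had 1 peak in GFP C, 50678 bp into the gene (chromosome 15, 58698933 to 58699198, fold 4.06, pileup 11, −log10 q 1.00). The gamma-secretase genes PSEN2, NCSTN, APH1A, APH1B and PSENEN had no assigned peak. One N3ICD C peak lay 468 bp upstream of the PSENEN start (chromosome 19, 35745080 to 35745359, fold 4.15, −log10 q 0.828) but went to U2AF1L4, whose end was 235 bp away. Which of these neighbours it belongs to cannot be told from distance.

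Of the 8 regulators of turnover and trafficking, 1 had an N3ICD peak and 1 a GFP peak. NUMB, an endocytic adaptor that antagonises Notch, had 1 peak in N3ICD A, 87123 bp into the gene (chromosome 14, 73371265 to 73371480, fold 3.53, −log10 q 0.246). FBXW7, the ubiquitin ligase subunit that marks the intracellular domain for degradation, had 1 peak in GFP A, 1577 bp upstream of a start (chromosome 4, 152537489 to 152537772, fold 3.65, −log10 q 0.315). NUMBL and the Deltex genes DTX1, DTX2, DTX3, DTX4 and DTX3L had none.

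**Figure D2:**
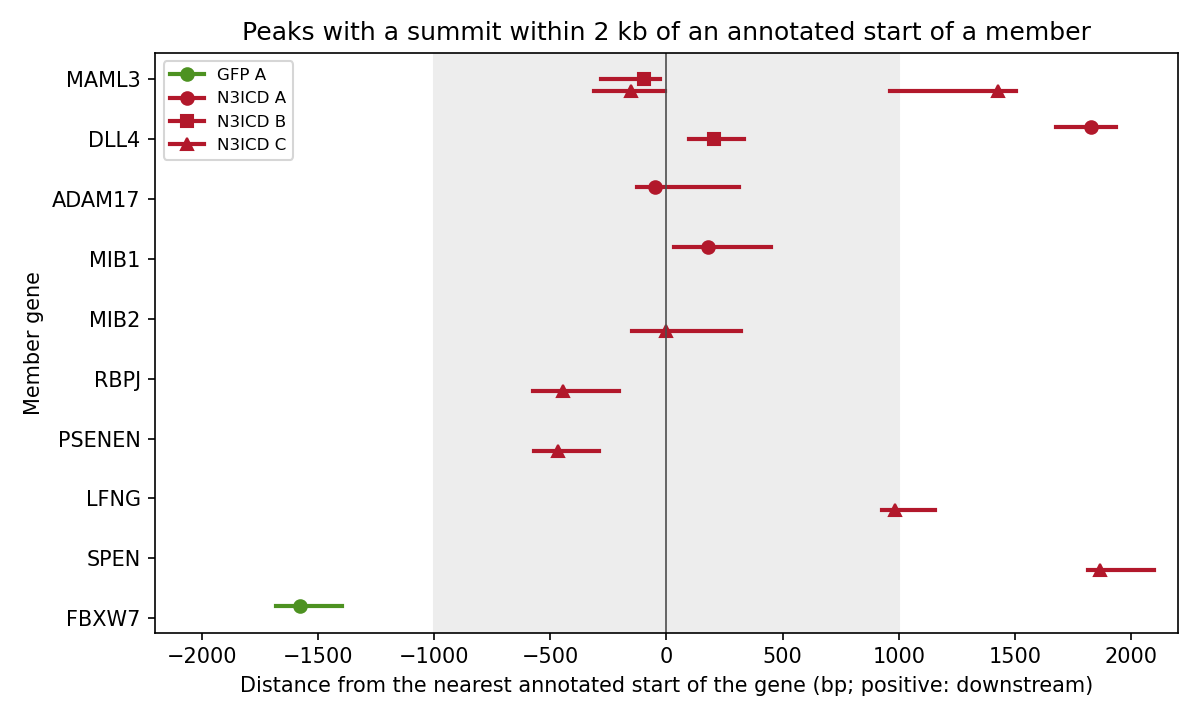
Peaks (lines) and summits (symbols) within 2 kb of an annotated start of a member, by distance from that start in bp, with the shaded band at 1 kb either side. All 9 summits in the band are from N3ICD libraries, at 8 members, and the GFP A peak at FBXW7 lies 1577 bp upstream.

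Several of these summits lay at starts that the ends of a gene do not show, so the distance to annotated starts was examined for the 28 members and 15842 genes with a promoter in RefSeq, a comparison chosen after the values were seen. DLL1, DLL3, DLK1, MFNG, APH1B, DTX1 and DTX3 did not enter it. A summit within 1 kb of a start, whatever gene the peak was assigned to, was found at 2, 2 and 5 members per N3ICD library and at none with GFP. In N3ICD A these were MIB1 and ADAM17, in B DLL4 and MAML3, and in C MIB2, RBPJ, MAML3, LFNG and PSENEN. The shares were 7.14%, 7.14% and 17.9% of members, against 1.43%, 4.14% and 5.66% of all such genes. In the GFP libraries 0.0252%, 0.0379% and 0.114% of all such genes had one, so that among all such genes too every GFP share was below every N3ICD share. Over the 3 N3ICD libraries together 8 of 28 members had one (28.6%) against 10.04% of genes, and over the GFP libraries 0 against 0.177%. By the recurrence rule only MAML3 was found (3.57% of members, 1.09% of genes). The count of 8 was 4 without N3ICD C, and it was 4 among peaks with a −log10 q of at least 1.3. The shares of all such genes at these settings were not computed, so these counts have no share beside them. The share of members stood above that of genes in each N3ICD library, but it rests on 9 single summits, and no test was made of it. The 14 stretches before annotated starts of these 8 members had a median GC content of 68.0%, against 66.0% for all genes with such a summit. All 39 stretches of members, with or without such a summit, had a median of 66.4%, against 62.0% for all protein-coding promoters. What part base composition plays was not tested.

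**Figure D3:**
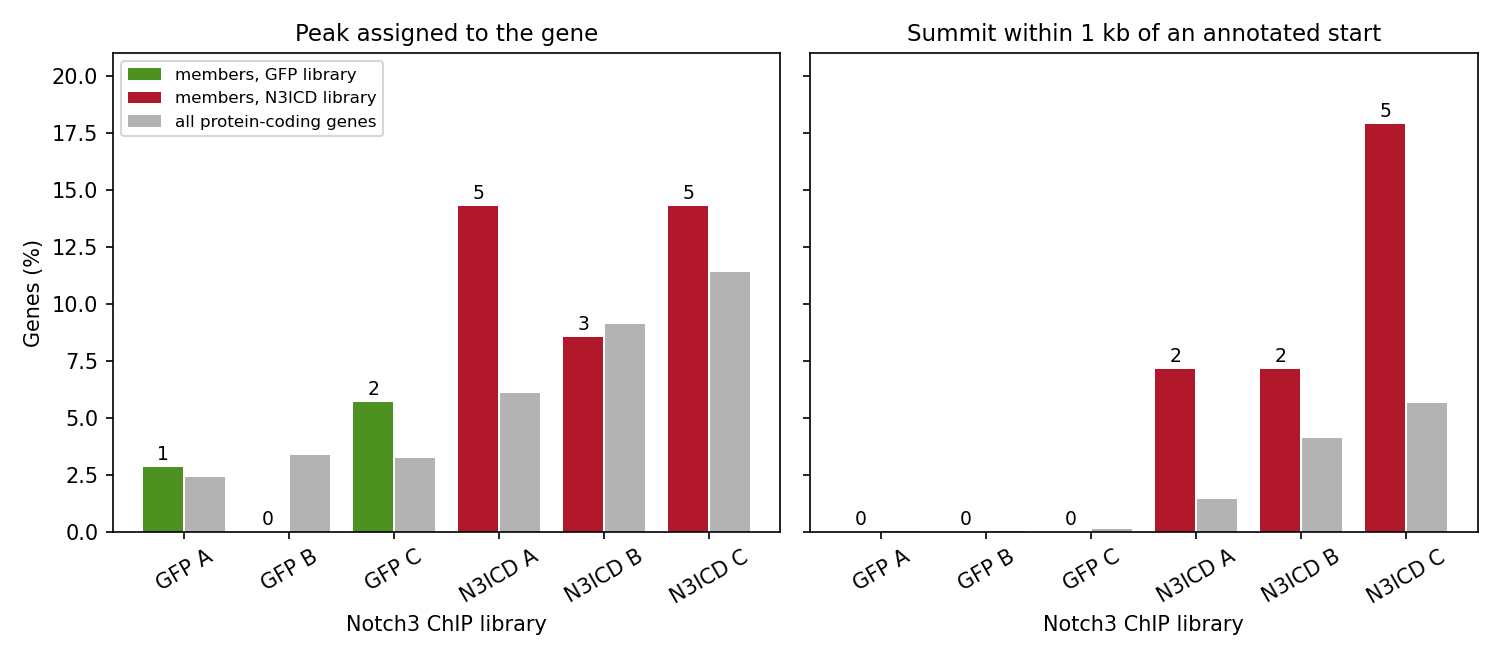
Share of members (coloured bars, with the number of members above) and of all protein-coding genes (grey bars) with an assigned peak (left) or with a summit within 1 kb of an annotated start (right), in % of genes, per library. The left shares of N3ICD A, B and C are 14.3%, 8.57% and 14.3% of members against 6.09%, 9.11% and 11.4% of genes.

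Measured from either end of a gene, 4 of the 17 N3ICD peaks at members lay within 1 kb, or 23.5% (95% Wilson interval 9.56% to 47.3%), against 29.5% of all 5881 assigned N3ICD peaks (28.4% to 30.7%). They were 1 of 5 in N3ICD A (20.0%, 3.62% to 62.4%), 2 of 3 in B (66.7%, 20.8% to 93.9%) and 1 of 9 in C (11.1%, 1.99% to 43.5%). None of the 3 GFP peaks at members was this close, nor were most others, with 2.84% of 1971 assigned GFP peaks (2.19% to 3.67%). The members' interval spans the share of all N3ICD peaks, and it covers counting error only.

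Most member peaks were weak. Of the 17 N3ICD peaks 4 reached a −log10 q of 1.3, the peaks of MAML3, MIB2 and MAML2 in N3ICD C and of DLL4 in N3ICD B, or 23.5% against 16.8% of all assigned N3ICD peaks. Per N3ICD library 0, 1 and 3 members had a peak at this threshold, where all genes stood at 0.484%, 1.44% and 2.83%. None of the members' peaks reached a −log10 q of 5. Folds ran from 3.05 to 5.71, and 3 of the 17 stood above the 90th percentile of their library. Identical values recurred. In N3ICD C 791 peaks (23.3%) had a pileup of 6 and a fold of 3.64, among them 3 of the members' peaks, and in N3ICD A 452 peaks (20.3%) had a pileup of 7 and a fold of 3.53, again with 3, those at MIB1, ADAM17 and NUMB.

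**Figure D4:**
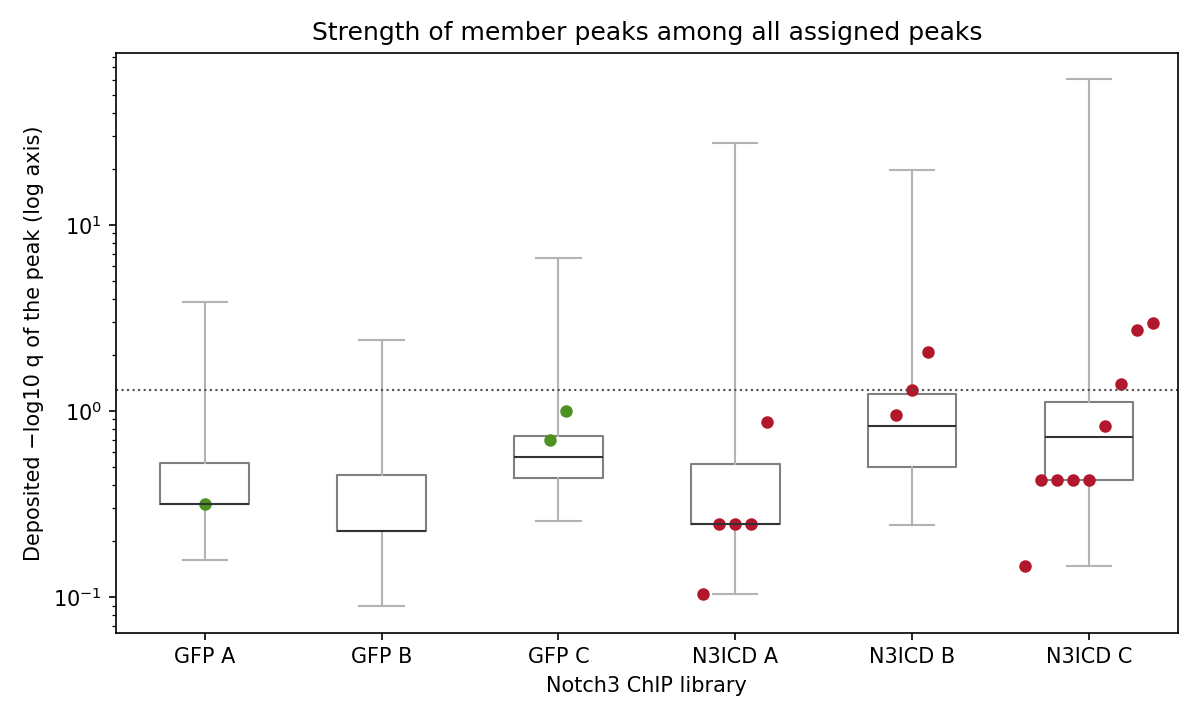
Deposited −log10 q (log axis) of each member peak (points) over the box (quartiles, median line) and full range (whiskers) of all assigned peaks of its library, with a dotted line at 1.3. Of the member peaks 4 stand above the line, 1 in N3ICD B and 3 in N3ICD C, and the highest is 2.98.

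Some peaks near members were not assigned to them. Inside a member or within 50 kb of its ends lay 20 such peaks, all from N3ICD libraries, at 12 members (34.3%, against 27.6% of all protein-coding genes). With GFP no member and 6.06% of all genes had one. Over all genes there were 7857 such pairs of a peak and a gene with N3ICD and 1542 with GFP, so N3ICD pairs were the more frequent there too. Except for that of RBPJ they went to a neighbour, and 12 of the 20 were within 1 kb of an end of the gene they went to. The highest −log10 q was at MGAT4B, 29832 and 29836 bp from MAML1, where peaks of N3ICD B (fold 5.24, −log10 q 3.05) and N3ICD C (fold 3.64, −log10 q 0.427) overlapped. When every gene within 50 kb of a summit was counted, DLL4, MAML1, MAML3, APH1A and PSENEN were recurrent (14.3% of members, 9.38% of genes).

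The other genes of the pathway were counted in the same way, with no test of the difference. Of the 11 HES, HEY and NRARP targets 5, 4 and 6 had a peak per N3ICD library, and of the 4 receptors 2, 3 and 1, with none in any GFP library. Recurrent were 6 targets and 2 receptors, beside 3.12% of all genes. Of all genes 6.09%, 9.11% and 11.4% had a peak per N3ICD library and 2.42%, 3.37% and 3.26% per GFP library. Of 19 further cofactors of RBPJ 2, 3 and 3 had a peak per N3ICD library and 1 per GFP library. Of 14 other regulators 2, 3 and 3 had one with N3ICD and 1, 0 and 1 with GFP. DNER, a ligand-like protein of neurons, was the only recurrent regulator (1 peak each in A and B).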

How the data were processed

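Peak lists of 6 Notch3 ChIP-seq libraries were analysed. Input libraries (6) were not used here. MACS3 3.0.0a7, Bowtie2 2.2.1, deepTools 3.5.1, bedtools 2.30.0, SAMtools 1.11 and the build hg38 are named in the submitters' processing notes. Their options, and the control of each peak call, are not given in the sources used here. The authors called peaks per library. Their deposited files give each peak's fold (a ratio), −log10 p and −log10 q, a score that is 10 times −log10 p, and, in the table of the series, the summit pileup (a signal of stacked fragments). That table and the 6 lists were equal for 12583 peaks. The lowest deposited −log10 p was 3.30 to 3.34 per library, a lenient threshold.

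Gene ends came from RefSeq GRCh38.p14, in which all 35 members were found by symbol, and starts from its promoter table, which held 28 of them. Exons were not used, so exon, intron and UTR are not stated. Of all summits, 34 were equally near to ends of more than 1 gene and went to the first by position and name. Libraries were compared by two-sided exact permutation tests. Whether replicate letters mark shared differentiations is not stated. Each p-value is the share of relabellings of these libraries with a difference at least as large as that seen. All libraries are from 1 line, so it does not cover variation between lines. Overlapping peaks (at least 1 bp) were merged into 12268 regions. Background pileup was the lowest repeated value of (pileup + 1) / fold − 1 per library. Of the 20 cofactors listed, 19 matched by symbol. Recurrence among these is not reported here. All members are named. Members, lists and tests were chosen with earlier results of these data known, and lists received counts only. The procedure was tested on simulated data. Alternatives covered peak threshold, peak number, assignment, overlap, libraries and replicate letter. SciPy 1.17.1, pandas 2.3.3, matplotlib 3.10.9 and numpy 2.4.6 ran under Python 3.11.15.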

Additional observations from a re-analysis of the deposited data

How the results depend on the processing

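No result changed sign. The mean difference in members with a peak, N3ICD minus GFP, was 3.33 genes. With peaks of −log10 q 1.3 or more it was 1.33, with 5 or more 0, and it was 1.33 with equal numbers of peaks (1219 a library) and 7.67 when every gene within 50 kb was counted, a setting added after the data were seen. Recurrent members numbered 3, against 0 at a −log10 q of at least 1.3 or 5, 0 when all 3 N3ICD libraries were required and 5 when every gene within 50 kb was counted. JAG1 was lost with equal numbers of peaks and with limits of 50 kb and 10 kb, which left DLL4 and MAML3. The 1 member with an N3ICD-only region became 0 at a −log10 q of at least 1.3 or 5 and when all 3 N3ICD libraries were required. Stricter settings admit fewer peaks by construction. The 8 members with a summit within 1 kb of a start were 4 at a −log10 q of at least 1.3.

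With a library or a letter left out, the difference in members ranged from 2.83 to 4, that in all genes from 918 to 1455, the recurrent members from 0 to 3, those with an N3ICD-only region from 0 to 1, the share of peaks at gene ends from 14.3% to 37.5% and the members with a summit at a start from 4 to 8. DLL4 and JAG1 rest on N3ICD A and B, and MAML3 on N3ICD B and C. No member was found by the rule for GFP under any setting run. The test per gene says nothing about stability, since no setting allows a p under 0.05 with 3 libraries a group or fewer. The share at gene ends has no value among peaks of −log10 q 5 or more, since no member peak was that high.

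With the replicate letter as a block, the difference in genes with a peak was 1175 (exact sign-flip permutation p = 0.25, the smallest 3 pairs allow) and that in members 3.33. A p of 0.25 or more cannot pass a threshold, so the block could change no call. Correlations across genes were near 0 for libraries of the same letter (−0.00935, 0.00269 and −0.00500) and of other letters (−0.00659 to 0.0124), which in sparse peak lists does not show whether the letters pair samples. Depth limits what a missing peak shows: no file used here holds read totals.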
